A study of Mus musculus with 6 samples.

Results

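The genes of de novo lipogenesis, the route that builds fatty acids from sugar carbon, were followed in nuclei of mouse subcutaneous white adipose tissue. The group holds 10 of the 32285 genes in the deposited matrices, chosen by symbol: the enzymes Acly, Acaca, Acacb, Fasn, Me1, Elovl6, Scd1 and Scd2, and the transcription factors Srebf1 and Mlxipl. The study made 6 single-nucleus libraries, 3 from GPSM1ΔTreg mice (CKO) and 3 from GPSM1f/f mice (FLOX). By its name the first genotype lacks Gpsm1, which encodes a modulator of G-protein signalling, in regulatory T (Treg) cells, so the adipocytes themselves were not the cells in which the gene was targeted; the Cre driver is not given in the sources used here. All mice were on a high-fat diet (HFD), for 12 weeks by the sample labels and for 5 to 12 weeks from an age of 7 weeks by the protocol, so no library shows the genes on a low-fat diet. Nothing in the labels says whether the libraries of a group were processed separately, and the p-values measure the spread between these libraries.

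In this pathway citrate leaves the mitochondria and ATP-citrate lyase (Acly) splits it into acetyl-CoA. Acetyl-CoA carboxylases (Acaca in the cytosol, Acacb at the mitochondrial surface) turn acetyl-CoA into malonyl-CoA, fatty acid synthase (Fasn) joins these units with NADPH that malic enzyme (Me1) helps to supply, and Elovl6 and the desaturases Scd1 and Scd2 lengthen and desaturate the product. The transcription factors SREBP-1 (Srebf1), which insulin activates, and ChREBP (Mlxipl), which glucose activates, drive these genes in liver and fat.

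The CKO libraries held 9730, 9420 and 9361 kept nuclei with median totals of 2052.5, 2445.5 and 2588.0 unique molecular identifiers (UMIs), and the FLOX libraries held 9285, 9114 and 9312 kept nuclei with 3159.0, 3188.0 and 2473.5. In T-cell-like nuclei the targeted gene, Gpsm1, stood at 20, 8.24 and 18 UMIs per 1000000 UMIs (CPM) in CKO libraries 1, 2 and 3 and at 27.2, 58.5 and 20.5 CPM in FLOX libraries 1, 2 and 3, on 43 and 16 UMIs in all. The FLOX values rest on 5, 6 and 5 UMIs, and this class was not split into Treg and other T cells. Over all kept nuclei Gpsm1 stood at 38.3, 38.3 and 33.7 CPM in CKO and at 27.2, 31.3 and 24.1 CPM in FLOX. In the adipocyte-like nuclei named below it stood at 13.6, 12.4 and 11.3 CPM in CKO and at 10.1, 8.84 and 8.78 CPM in FLOX. These 3′ counts do not say whether the Gpsm1 transcripts carry the deletion. FLOX library 3 stood apart: 28.3% of its nuclei formed a cluster of low totals with adipocyte markers, against 0.244 to 1.90% in the other 5 libraries, and that cluster was left unnamed and out of the adipocyte class. Pairs of libraries shared 24 to 44 cell barcodes, at most 0.409% of the smaller library.

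Adipocyte-like nuclei, named from 10 markers that include Adipoq, Plin1 and Pparg, numbered 1321, 2606 and 2183 in CKO libraries 1, 2 and 3 and 2278, 2821 and 1915 in FLOX libraries 1, 2 and 3, in all 13124 of 56222 kept nuclei. Their median totals were 8643, 5219.5 and 5906 UMIs in the CKO libraries and 10154, 9377 and 9222 UMIs in the FLOX libraries. They held 52.6% of all UMIs (mean of 6 libraries), and the members fell on either side of that share. Of the UMIs of Mlxipl 93.6% came from adipocyte-like nuclei, of Acacb 90.0%, of Me1 87.6%, of Acaca 79.2%, of Fasn 79.0%, of Srebf1 72.8% and of Scd1 71.5%. Acly, with 44.4%, Elovl6, with 37.1%, and Scd2, with 29.4%, had lower shares, which differed between the groups: for Acly 36.4% in CKO and 52.4% in FLOX, for Elovl6 24.7% in CKO and 49.5% in FLOX, and for Scd2 17.9% in CKO and 40.8% in FLOX. The adipocyte-like share of all UMIs was itself 47.3% in CKO and 58.0% in FLOX.

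Promoter sequence is shown for 4 members: Fasn and Me1, which were highest in the same adipocyte state in every library, and Srebf1 and Mlxipl, the transcription factors of the pathway. The sequences are from RefSeq on GRCm38.p6, from 250 bases before to 50 bases after a transcription start, on the strand of the gene. RefSeq starts were matched for 8 of the 10 members. Capitals mark matches, on either strand, to the sterol response element TCACNCCAC, the E-box CACGTG, the CCAAT box and the GC box GGGCGG.
Fasn, chr11:120824498-120824797, minus strand: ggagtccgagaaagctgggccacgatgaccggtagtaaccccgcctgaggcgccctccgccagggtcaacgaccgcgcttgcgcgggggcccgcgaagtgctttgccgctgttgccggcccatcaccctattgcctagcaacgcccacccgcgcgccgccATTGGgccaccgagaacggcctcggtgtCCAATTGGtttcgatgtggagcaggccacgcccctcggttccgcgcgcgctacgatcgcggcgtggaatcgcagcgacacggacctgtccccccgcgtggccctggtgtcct
Me1, upstream start, chr9:86695865-86696164, minus strand: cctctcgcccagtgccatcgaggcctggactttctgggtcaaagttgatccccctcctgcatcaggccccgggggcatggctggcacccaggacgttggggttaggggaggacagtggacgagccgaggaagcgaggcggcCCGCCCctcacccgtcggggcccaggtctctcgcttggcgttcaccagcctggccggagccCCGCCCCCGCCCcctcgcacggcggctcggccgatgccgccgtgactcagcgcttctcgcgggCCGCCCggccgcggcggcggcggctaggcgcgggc
Srebf1, most downstream of 3 starts, chr11:60210422-60210721, minus strand: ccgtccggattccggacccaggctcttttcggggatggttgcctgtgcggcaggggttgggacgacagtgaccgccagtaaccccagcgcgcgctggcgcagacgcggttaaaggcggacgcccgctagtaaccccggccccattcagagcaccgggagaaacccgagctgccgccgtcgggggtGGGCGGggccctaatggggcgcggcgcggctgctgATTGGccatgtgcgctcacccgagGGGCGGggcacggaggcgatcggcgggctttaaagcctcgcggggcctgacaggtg
Mlxipl, upstream start, chr5:135089640-135089939, plus strand: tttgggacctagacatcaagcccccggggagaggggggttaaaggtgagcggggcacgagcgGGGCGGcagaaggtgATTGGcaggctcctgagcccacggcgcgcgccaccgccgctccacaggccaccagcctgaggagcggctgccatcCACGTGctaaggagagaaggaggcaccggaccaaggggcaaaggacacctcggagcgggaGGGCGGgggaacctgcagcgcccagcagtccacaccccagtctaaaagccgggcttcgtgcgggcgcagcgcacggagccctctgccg
Mlxipl, downstream start, chr5:135106641-135106940, plus strand: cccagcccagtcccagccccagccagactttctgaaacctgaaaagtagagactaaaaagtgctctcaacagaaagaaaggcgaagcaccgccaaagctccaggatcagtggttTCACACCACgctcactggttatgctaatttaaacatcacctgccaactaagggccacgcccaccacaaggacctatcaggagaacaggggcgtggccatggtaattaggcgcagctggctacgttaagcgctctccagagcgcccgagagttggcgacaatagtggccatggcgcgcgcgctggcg

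The Fasn window held 3 CCAAT matches, a pair of which overlapped on opposite strands, and no GC box. The Me1 window shown, the upstream of 2, held 4 GC boxes and no CCAAT, while the other Me1 window held 1 CCAAT and no GC box. Among the 32851 mouse promoter windows of the same length, 37.4% held a CCAAT and 35.7% a GC box. The upstream Mlxipl window held the only E-box among the 12 windows of the members, against 7.15% of all windows, and its downstream window held the only sterol response element, against 1.24% of all windows. The Srebf1 window shown held 2 GC boxes and 1 CCAAT. A match of letters is not evidence of binding, and 3′ counts do not separate transcripts by start.

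Between genotypes, no member passed the test in adipocyte-like nuclei. Of the 10 members 5 had a fitted log2 fold change (CKO over FLOX) above 0, as had 52% of all genes tested. The values were below 0 for Acly, Fasn, Me1, Elovl6 and Scd2 in each of the 19 settings tried, which share the same libraries. They were above 0 for Acacb, Srebf1 and Mlxipl in each setting, while Acaca (0.04) and Scd1 (0.15) changed sign with the setting. edgeR's quasi-likelihood test called 0 of the 10 members at an adjusted p under 0.05, where 2.41% of the 15713 genes tested were called, and 6 members had an unadjusted p under 0.05, as had 22.9% of all genes. DESeq2 on the same sums called 4: Acly and Scd2 lower, and Acacb and Srebf1 higher, in CKO. Of all 15713 genes DESeq2 called 541 higher and 773 lower. For 3 members the CPM of the groups did not overlap, namely Acly, lower in CKO, and Srebf1 and Mlxipl, higher in CKO. The same was true of 30.9% of all genes tested, with 9.14% lower and 21.7% higher in every CKO library.

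**Figure D1:**
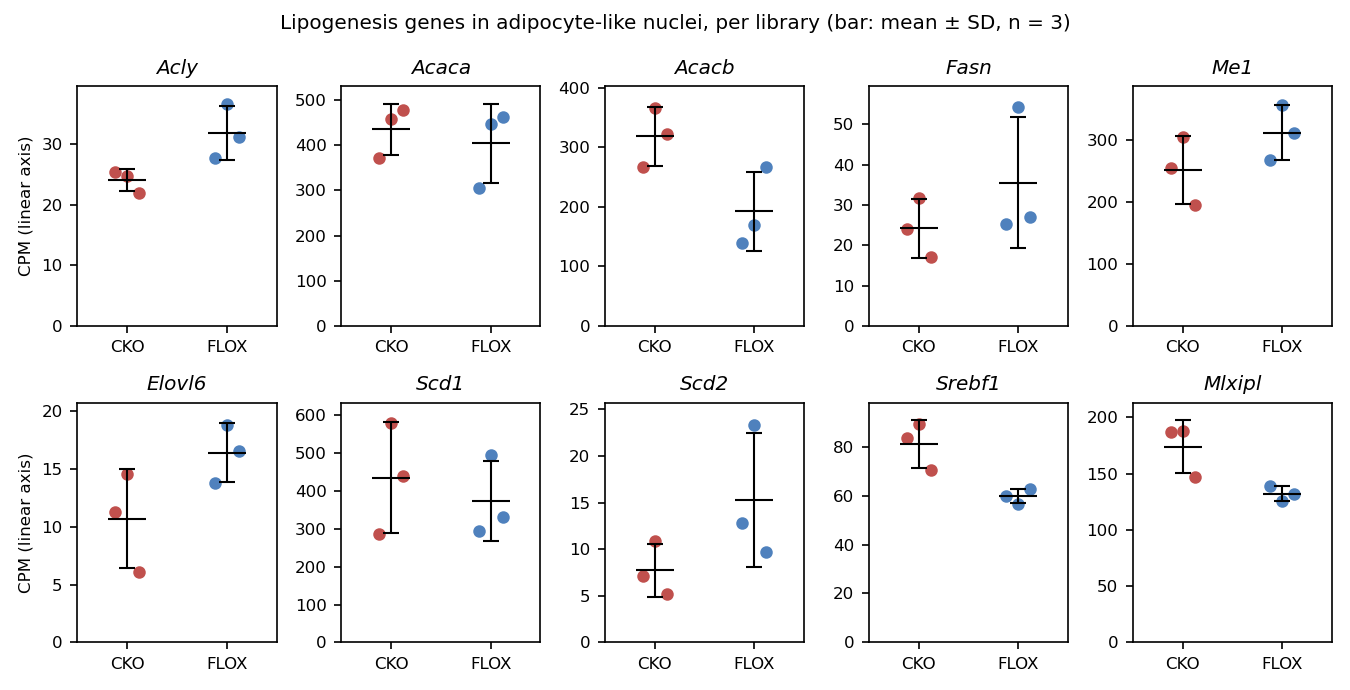
Level of each lipogenesis gene in adipocyte-like nuclei (y axis, CPM, linear, each panel with its own scale) in the 3 CKO libraries (red) and the 3 FLOX libraries (blue); points are libraries and black bars the mean ± SD. The groups did not overlap for Acly, which was lower in all 3 CKO libraries, nor for Srebf1 and Mlxipl, which were higher in all 3.

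Acly (ENSMUSG00000020917; mm10 chr11:100476353-100528000, minus strand), which makes the acetyl-CoA of the pathway, stood at 25.4, 24.8 and 22.0 CPM in CKO libraries 1, 2 and 3 and at 27.7, 36.7 and 31.2 CPM in FLOX libraries 1, 2 and 3. All CKO values lay below all FLOX values. The fitted log2 fold change was -0.48 ± 0.11 (SE), with an adjusted p of 0.0648 by edgeR, and across settings the adjusted p ran from 0.0152 to 0.181. The carboxylase Acaca (chr11:84129672-84401651) stood at 371, 458 and 478 CPM in the CKO libraries and at 305, 447 and 463 CPM in the FLOX libraries, a log2 fold change of 0.04 ± 0.17 (adjusted p = 0.92, edgeR). Its groups overlapped across most of their range. In nuclei with 3000 to 8000 UMIs they did not, at 478, 555 and 571 CPM in the CKO libraries and 279, 362 and 470 CPM in the FLOX libraries (0.51 ± 0.18, adjusted p = 0.198, edgeR), the lowest adjusted p of the 19 settings, which reached 0.995. How many of all genes had groups that did not overlap in these nuclei was not counted.

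Acacb (chr5:114146535-114250761), whose malonyl-CoA restrains fatty acid entry into mitochondria, stood at 267, 366 and 322 CPM in the CKO libraries, against 140, 170 and 267 CPM in the FLOX libraries. Only FLOX library 3 reached into the CKO range, by less than 1 CPM. The log2 fold change was 0.66 ± 0.24 (adjusted p = 0.164, edgeR) and became 0.97 with an adjusted p of 0.0425 without FLOX library 3, the library that stood apart. Over all settings its adjusted p ran from 0.0425 to 0.375.

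Fasn (chr11:120805846-120824547) stood at 24.0, 31.7 and 17.0 CPM in the CKO libraries and at 25.3, 54.3 and 27.1 CPM in the FLOX libraries. The spread within FLOX came from library 2, and the log2 fold change was -0.62 ± 0.33 (adjusted p = 0.308, edgeR). In nuclei with 3000 to 8000 UMIs, whose medians were still lower in CKO libraries 2 and 3 (4883 and 5042.5 UMIs) than in the FLOX libraries (5608 to 5797 UMIs), it was -0.80 with an adjusted p of 0.0219, while over all settings the adjusted p reached 0.673. Me1 (chr9:86581371-86695953), a source of NADPH, stood at 256, 306 and 196 CPM in the CKO libraries and at 268, 358 and 312 CPM in the FLOX libraries (log2 fold change -0.38 ± 0.16, adjusted p = 0.22, edgeR). CKO library 2 lay inside the FLOX range.

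Elovl6 (chr3:129532355-129638495), which lengthens palmitate, stood at 11.3, 14.6 and 6.10 CPM in the CKO libraries and at 13.7, 18.8 and 16.6 CPM in the FLOX libraries (log2 fold change -0.69 ± 0.28, adjusted p = 0.199, edgeR). Scd2 (chr19:44293674-44306864) stood at 7.08, 10.8 and 5.24 CPM in the CKO libraries and at 12.8, 23.4 and 9.72 CPM in the FLOX libraries, on 378 and 1284 UMIs. Here too CKO library 2 lay inside the FLOX range, and the log2 fold change was -1.06 ± 0.37 (adjusted p = 0.151, edgeR). Its neighbour Scd1 (chr19:44394455-44407879), the desaturase that fat cells use most, stood at 286, 579 and 440.4 CPM in the CKO libraries and at 295, 495 and 329.9 CPM in the FLOX libraries, a log2 fold change of 0.15 ± 0.28 (adjusted p = 0.773, edgeR). Scd1 and Scd2 are close paralogs, so how the authors' counting shared reads between them is uncertain.

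Both transcription factors lay higher in every CKO library. Srebf1 (chr11:60199089-60222581) stood at 83.7, 89.3 and 70.5 CPM in CKO libraries 1, 2 and 3, against 59.97, 56.8 and 62.8 CPM in FLOX libraries 1, 2 and 3 (log2 fold change 0.37 ± 0.10, adjusted p = 0.0794, edgeR). Mlxipl (chr5:135089890-135138382) stood at 187, 188 and 147 CPM in the CKO libraries, against 139, 126 and 132 CPM in the FLOX libraries (log2 fold change 0.32 ± 0.10, adjusted p = 0.116, edgeR). Without FLOX library 3 the log2 fold changes were 0.41 for Srebf1 and 0.33 for Mlxipl. Counts at the 3′ end do not separate the isoforms of these factors.

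Markers of other cell types were counted in the same sums. The 9 macrophage markers together ran from 125 to 233 CPM in the CKO libraries and from 143 to 157 CPM in the FLOX libraries. The 7 B cell markers other than Ebf1, which adipocytes express, ran from 63.0 to 119 CPM in CKO and from 54.1 to 75.3 CPM in FLOX. The 6 Schwann cell markers ran from 254 to 319 CPM in CKO and from 190 to 223 CPM in FLOX, with all 6 higher on average in CKO, and the 6 plasma cell markers from 57.2 to 81.8 CPM in CKO and from 47.97 to 52.7 CPM in FLOX, with 4 higher. The 10 adipocyte markers ran from 32370 to 42670 CPM in CKO and from 28910 to 32080 CPM in FLOX, with all 10 higher on average in CKO. Fold changes also followed gene span across genes (Spearman's rho -0.364 over 15705 genes, which are not independent replicates). With each library's trend over span removed 0 members passed by edgeR, while 44 genes passed as higher and 45 as lower in CKO. Of the members 5 had an unadjusted p under 0.05 in that setting, as had 2908 of the 15705 genes. What part these shifts had in the members' values was not tested. In the class sum alone, fewer nuclei of a state and less RNA per nucleus cannot be told apart. Shares, depths and levels by state are given below.

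The adipocyte class held 4 large states, called here by their leading genes: a Pck1/Nrg4/Cfd-led, a Vat1l/St6galnac5-led, a Plagl1/Ptger3/Peg10-led and a Mageb18/Ptchd4/Pnpla3-led cluster. They differ in depth, with median totals of 5073, 5674, 10953 and 13641.5 UMIs in that order. The Pck1-led state made up 44.6 ± 3.47% of adipocyte-like nuclei in CKO and 15.3 ± 8.27% in FLOX (SD, n = 3 libraries each), and the Mageb18-led state 15.1 ± 4.61% in CKO and 28.0 ± 2.74% in FLOX. The Plagl1-led state made up 17.8 ± 3.63% in CKO and 35.5 ± 5.07% in FLOX, and the Vat1l-led state 21.6 ± 3.36% in CKO and 21.2 ± 4.29% in FLOX. These shares leave out the unnamed cluster with adipocyte markers. It held 2634 nuclei of FLOX library 3, beside the 1915 adipocyte-like nuclei of that library. Its leading genes include Mageb18, Lctl, Pnpla3 and Mest, as do those of the Mageb18-led state, and Adrb3, as do those of the Pck1-led state. The 4 states were made from the same nuclei, so the levels that follow are descriptions with no test. Scd1 alone among the members was one of the variable genes used for clustering.

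The members did not share one pattern. Fasn, Me1 and Scd2 were highest in the Mageb18-led state in 6 of 6 libraries. Fasn averaged 66.2 ± 27.2 CPM there (SD, n = 6 libraries), against 19.2 ± 4.52 in the Pck1-led, 8.30 ± 1.75 in the Plagl1-led and 6.97 ± 2.15 CPM in the Vat1l-led state, a range of 9.49-fold. Me1 averaged 465 ± 107 CPM in the Mageb18-led state, 233 ± 20.1 in the Pck1-led, 182 ± 21.3 in the Plagl1-led and 141 ± 14.2 CPM in the Vat1l-led state, and the Vat1l-led state was lowest in every library. Scd2 averaged 21.4 ± 10.4 CPM in the Mageb18-led state and between 4.78 and 6.94 CPM in the other 3, which did not differ beyond their spread. Acly also averaged most in the Mageb18-led state, with 34.3 ± 8.86 CPM, but least in the Pck1-led state, with 20.8 ± 3.59 CPM, below the first in 6 of 6 libraries.

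Srebf1 averaged 116 ± 20.1 CPM in the Pck1-led state, 82.8 ± 4.92 in the Mageb18-led, 47.5 ± 9.74 in the Vat1l-led and 36.0 ± 3.84 CPM in the Plagl1-led state, with the first highest and the last lowest in 6 of 6 libraries. Scd1 was highest in the Pck1-led state in 5 of 6 libraries, at 655 ± 170 CPM, and lowest in the Plagl1-led state in all 6, at 216 ± 81.5 CPM. Acaca (571 ± 143 against 484.6 ± 125 CPM) and Mlxipl (194 ± 50.0 against 162 ± 16.5 CPM) were higher in the Pck1-led than in the Mageb18-led state in 4 of 6 libraries, within their spread. Acacb averaged 345 ± 215 CPM in the Pck1-led and 233 ± 54.5 CPM in the Mageb18-led state, but was higher in the Mageb18-led state in 3 of 6 libraries. The spread in the Pck1-led state covers CKO and FLOX values that did not overlap there. Elovl6 had no steady order, from 9.62 ± 3.26 CPM in the Plagl1-led to 16.6 ± 7.82 CPM in the Mageb18-led state, with overlapping spreads.

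**Figure D2:**
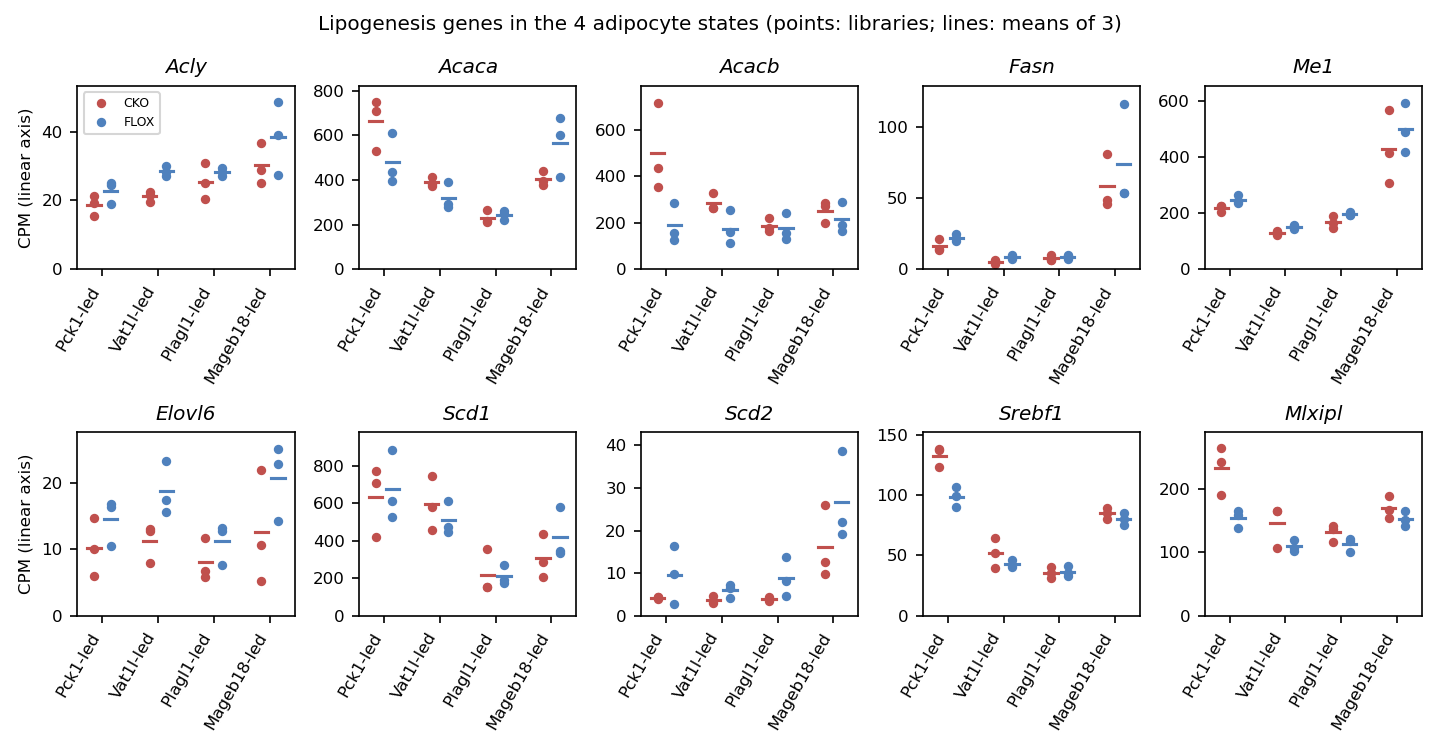
Level of each lipogenesis gene (y axis, CPM, linear, each panel with its own scale) in the 4 adipocyte states (x axis), with CKO libraries in red on the left and FLOX libraries in blue on the right of each state; points are libraries and short lines the means of 3. Fasn, Me1 and Scd2 peak in the Mageb18-led state, and Srebf1 in the Pck1-led state, in 6 of 6 libraries.

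When the members and all genes of the related lists were left out of the clustering, clusters led by Pck1, Vat1l and Mageb18 returned beside one led by Gabrr2 with Plagl1 among its first genes, and Fasn averaged 51.4 CPM in the Mageb18-led and 20.9 CPM in the Pck1-led one, while Srebf1 averaged 70.1 and 119 CPM in them. Over the 24 sums of 1 state in 1 library, log2 levels of Fasn and Me1 had a Pearson correlation of 0.95, those of Scd2 and Me1 of 0.82, and those of Mlxipl and Srebf1 of 0.845, while those of Acly and Acacb had one of -0.44. These points share libraries and depth, and the correlations are descriptions.

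Because the states differed in share, the 4 states were also weighted equally in each library. Mlxipl then averaged 170 ± 21.6 CPM in CKO and 133 ± 9.45 CPM in FLOX (SD, n = 3 each), with no overlap, and its log2 ratio of means was 0.36, against 0.40 as summed. Srebf1 averaged 76.4 ± 6.94 CPM in CKO and 64.7 ± 3.65 CPM in FLOX. Its groups then overlapped, and its log2 ratio was 0.24, against 0.44 as summed. Acly averaged 23.9 ± 1.43 CPM in CKO and 29.5 ± 2.48 CPM in FLOX, a log2 ratio of -0.30, against -0.41 as summed. The log2 ratio of Fasn was -0.37 weighted and -0.55 as summed, and that of Scd1 -0.046 weighted and 0.22 as summed. This weighting was chosen after the data were seen.

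Acly, Fasn, Me1, Elovl6 and Scd2 had log2 fold changes below 0, and Acacb and Mlxipl above 0, in each of the 4 states, which share their libraries. No member passed edgeR's test in any state. The shares of all tested genes that did were 1.01% in the Pck1-led, 0.0608% in the Vat1l-led, 0.289% in the Plagl1-led and 0.127% in the Mageb18-led state. Members with an unadjusted p under 0.05 numbered 4, 4, 2 and 1 of 10 in that order, where 15.2, 9.78, 13.8 and 11.3% of all genes had one. DESeq2 called 1 member, Mlxipl in the Pck1-led state, where it called 90 of 11952 genes higher and 159 lower in CKO.

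In the Pck1-led state Mlxipl stood at 242, 265 and 191 CPM in CKO libraries 1, 2 and 3, against 165, 138 and 160 CPM in FLOX libraries 1, 2 and 3 (log2 fold change 0.56 ± 0.13, adjusted p = 0.0655, edgeR). Acacb stood at 354, 713 and 434 CPM in CKO there, against 124, 156 and 286 CPM in FLOX (log2 fold change 1.35 ± 0.42, adjusted p = 0.218, edgeR). Srebf1 stood at 138, 137 and 123 CPM in CKO, against 107, 99.6 and 90.0 CPM in FLOX (log2 fold change 0.40 ± 0.11, adjusted p = 0.1, edgeR). All CKO values of these 3 members lay above all FLOX values, which held for 12.4% of all genes tested in that state, and Me1 lay lower in every CKO library, against 7.9% of genes; in either direction 4 of 10 members did not overlap, against 20.3% of genes. In the Mageb18-led state the same genes differed little, with log2 fold changes of 0.11 ± 0.10 for Mlxipl, 0.19 ± 0.23 for Acacb and 0.04 ± 0.10 for Srebf1, and 0 of 10 members had groups that did not overlap, against 18.3% of genes.

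Groups did not overlap for 5 of 10 members in the Vat1l-led state, against 15.3% of genes, and for 2 of 10, Scd2 and Me1, in the Plagl1-led state, against 19.9% of genes. In the Vat1l-led state these were Acacb, higher in CKO, and Acly, Fasn, Elovl6 and Me1, lower in CKO. Me1 was thus lower in all CKO than in all FLOX libraries in 3 of the 4 states, which share their libraries; 5.93% of genes were so in the Vat1l-led and 7.63% in the Plagl1-led state. It stood at 131, 136 and 120 CPM in CKO, against 145, 153 and 158 CPM in FLOX, in the Vat1l-led state, with a log2 fold change of -0.27 ± 0.10 (adjusted p = 0.379, edgeR). In the Plagl1-led state it stood at 166, 191 and 147 CPM in CKO and at 194, 194 and 203 CPM in FLOX. Elovl6 in the Vat1l-led state stood at 12.8, 13.02 and 7.90 CPM in CKO and at 17.3, 23.2 and 15.6 CPM in FLOX, on 86 and 203 UMIs (log2 fold change -0.82 ± 0.24, adjusted p = 0.253, edgeR).

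**Figure D3:**
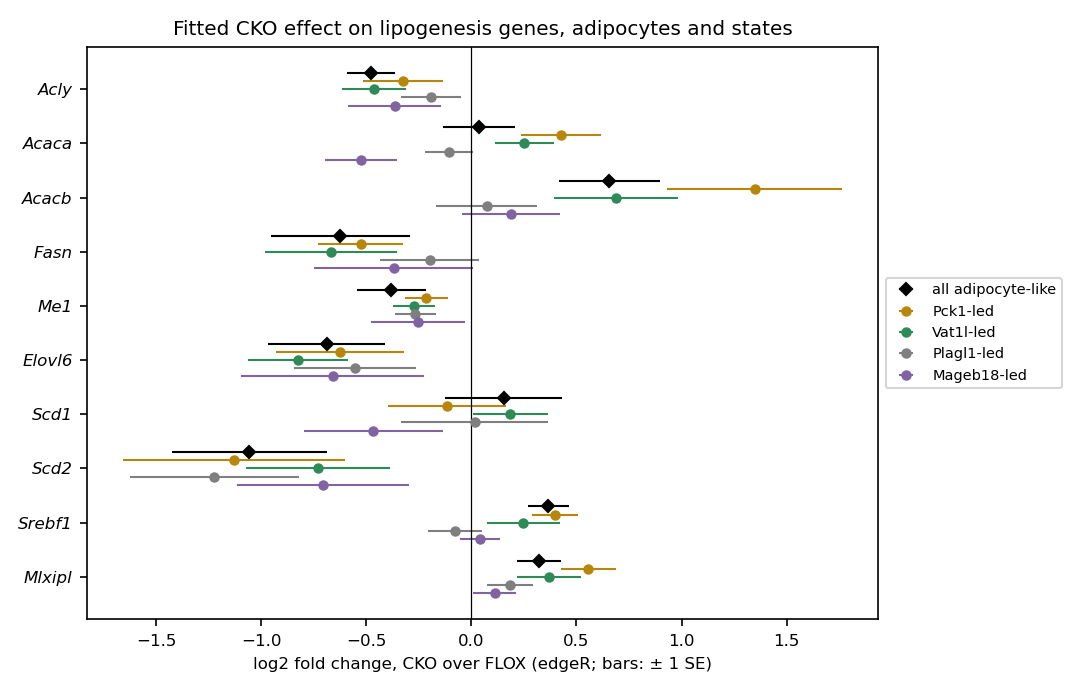
Fitted log2 fold change of each lipogenesis gene, CKO over FLOX (x axis; edgeR, bars ± 1 SE), in all adipocyte-like nuclei (black diamonds) and in each of the 4 states (circles). Acly, Fasn, Me1, Elovl6 and Scd2 lie left of 0 in all 4 states, while Acaca lies at 0.42 in the Pck1-led and at -0.52 in the Mageb18-led state.

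Whether the CKO effect differed between the Pck1-led and the Mageb18-led state was tested with an interaction term and the library as a block. Acaca alone among the 10 members passed, where 0.748% of the 13377 genes tested did. It stood at 530, 711 and 748 CPM in CKO libraries 1, 2 and 3, against 396, 436 and 608 CPM in FLOX libraries 1, 2 and 3, in the Pck1-led state, and at 376, 396 and 441 CPM in CKO, against 413, 679 and 603 CPM in FLOX, in the Mageb18-led state. The groups overlapped within each state, and the order of their means was opposite. The difference in log2 fold change was 0.96 ± 0.16 (adjusted p = 0.025, edgeR). Its adjusted p was above 0.05 without CKO library 2 (0.0736), CKO library 3 (0.114), FLOX library 1 (0.0555) or FLOX library 2 (0.0758), with a difference of 0.75 to 1.09 and an adjusted p of 0.00703 to 0.114 over the 6 leave-one-out fits. Mlxipl (0.46 ± 0.14, adjusted p = 0.158), Srebf1 (0.38 ± 0.12, adjusted p = 0.182) and Acacb (1.19 ± 0.45, adjusted p = 0.434) had differences of the same sign in edgeR that did not pass.

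Outside adipocytes the members had separate distributions. A reference for RNA carried over from adipocytes is given by the 10 adipocyte markers, whose median level in other classes was 3.26% (macrophage-like) to 11.2% (mural-like) of that in adipocyte-like nuclei. Mlxipl lay at 1.56 to 8.44% of its adipocyte level in the 7 other classes compared, at or near that reference. Single markers reached 103% (Pparg in endothelial-like nuclei), and whether the Mlxipl counts there were carried over was not tested. Acacb lay near the reference too in macrophage-like (1.25%), B-cell-like (1.33%) and NK-like nuclei (2.36%). In endothelial-like nuclei Acacb averaged 115 ± 16.7 CPM (SD, n = 6 libraries), 44.9% of its adipocyte level, against a marker median of 4.55%, although Pparg, one of the markers, was as high there as in adipocytes. Skeletal-muscle-like nuclei, of which 158 of 230 came from FLOX library 3, had 378 CPM of Acacb and 101 CPM of Mlxipl when pooled.

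**Figure D4:**
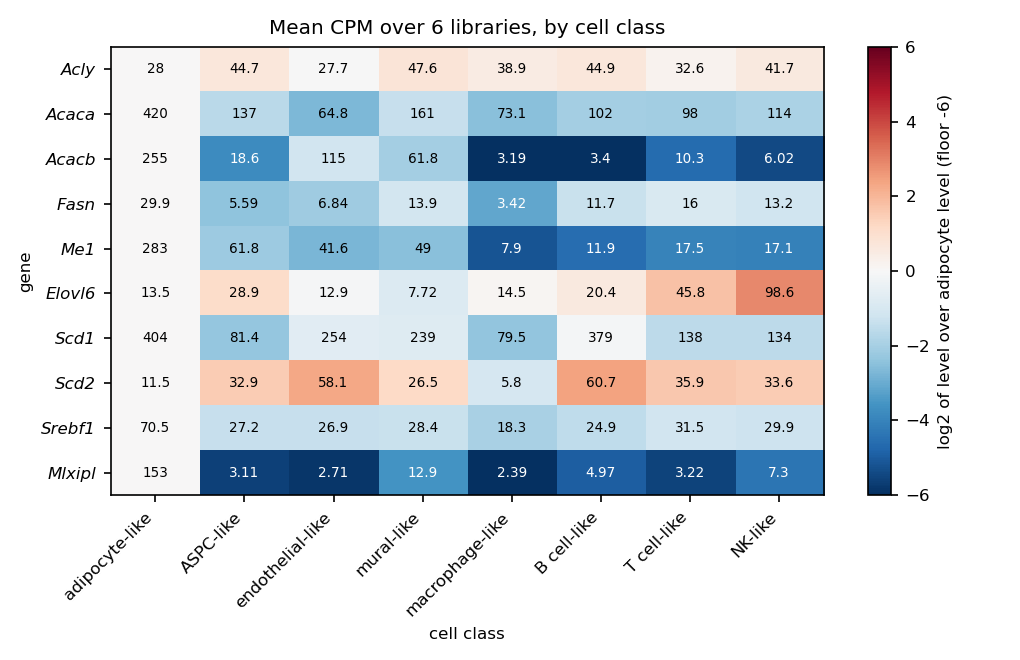
Mean CPM over 6 libraries of each lipogenesis gene (rows) in 8 cell classes (columns); the printed value is the CPM and the colour is the log2 of that level over the same gene's level in adipocyte-like nuclei, cut at -6. Elovl6 in NK-like nuclei, which also carry T cell markers, and Scd2 in B-cell-like and endothelial-like nuclei stand above their adipocyte level. Mlxipl does so in no class.

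Elovl6 had a lower level in adipocyte-like nuclei, with 13.5 ± 4.44 CPM (SD, n = 6 libraries), than in NK-like nuclei. There it stood at 107, 52.2 and 62.9 CPM in CKO libraries 1, 2 and 3 and at 120, 97.9 and 152 CPM in FLOX libraries 1, 2 and 3, on 196 and 66 UMIs, so every library lay above every adipocyte value. The class differed in makeup between the groups: its 7 NK markers summed to 936 to 2596 CPM in CKO and 2877 to 7973 CPM in FLOX, with 0 of 7 higher in CKO, and the 9 T cell markers to 7324 to 8643 CPM in CKO and 4908 to 5580 CPM in FLOX, with 9 of 9 higher. Their part in the Elovl6 values was not tested. The T cell markers averaged 7958 CPM in CKO, above their 7245 CPM in T-cell-like nuclei, and 5188 CPM in FLOX, below 5798 CPM. The NK-like class thus carries markers of both cell types, and its Elovl6 level is not that of NK cells alone. T-cell-like nuclei had 45.8 ± 8.20 CPM and ASPC-like nuclei, those with markers of adipose stem and progenitor cells, 28.9 ± 3.66 CPM. A cluster of 270 nuclei led by Pcdh15 and Cxcl13, which stayed unnamed, had 228 CPM of Elovl6 when pooled, and none of its nuclei came from FLOX libraries 1 and 2.

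Scd2 was likewise higher outside adipocytes. It averaged 60.7 ± 29.6 CPM in B-cell-like, 58.1 ± 14.9 in endothelial-like and 32.9 ± 5.22 CPM in ASPC-like nuclei, against 11.5 ± 6.40 CPM in adipocyte-like nuclei (SD, n = 6 libraries). Scd1 averaged 379 ± 48.8 CPM in B-cell-like nuclei, close to its 404 ± 120 CPM in adipocyte-like nuclei, where B-cell-like nuclei had a marker median of 4.48% of the adipocyte level. Acly varied little between classes, from 27.7 ± 4.74 CPM in endothelial-like to 47.6 ± 13.2 CPM in mural-like nuclei. Fasn lay between 3.42 ± 1.72 CPM in macrophage-like and 16.0 ± 6.76 CPM in T-cell-like nuclei, below its 29.9 ± 12.9 CPM in adipocyte-like nuclei.

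Between genotypes, edgeR called 0 members in the other classes tested. The background was 0.0415% of genes in the whole tissue, 0.247% in ASPC-like, 0.581% in macrophage-like and 0.0855% in endothelial-like nuclei, where Mlxipl was too low to test and 9 members were tested. Members with an unadjusted p under 0.05 numbered 3, 3, 2 and 2 in that order. The shares of all genes with one were 28.5, 11.1, 14.1 and 8.26%. DESeq2 called only Me1, in the whole tissue, where it called 1759 of 19282 genes higher and 1637 lower in CKO. In macrophage-like nuclei Acaca stood at 51.6, 71.1 and 57.9 CPM in CKO libraries 1, 2 and 3, against 83.9, 84.8 and 89.6 CPM in FLOX libraries 1, 2 and 3. No CKO value reached the FLOX range, and the log2 fold change was -0.48 ± 0.12 (adjusted p = 0.0966, edgeR). The share of all genes whose groups did not overlap was not counted in this class or its clusters. The class was made up differently in each group. A cluster led by Atp6v0d2 held 12.9, 21.4 and 11.9% of macrophage-like nuclei in CKO libraries 1, 2 and 3 and 37.1, 29.7 and 30.7% in FLOX libraries 1, 2 and 3. Acaca stood at 116, 87.8 and 118 CPM there in CKO and at 121, 119 and 134 CPM in FLOX. In the cluster led by Mrc1 it stood at 34.9, 68.5 and 49.5 CPM in CKO and at 40.3, 57.6 and 50.9 CPM in FLOX, and in that led by Cd209f at 39.2, 53.8 and 37 CPM in CKO and at 42.8, 48.2 and 57.1 CPM in FLOX. The groups overlapped in the Mrc1-led and Cd209f-led clusters, and in the Atp6v0d2-led cluster every CKO value lay below the FLOX values, the highest by little. In the class the adipocyte markers together averaged 1069 CPM in CKO and 1359 CPM in FLOX in these nuclei, and the dividing-cell markers 163 CPM in CKO and 277 CPM in FLOX. The part of these markers in the Acaca value was not tested. In endothelial-like nuclei Scd2 stood at 47.4, 45.8 and 48.4 CPM in CKO, against 72.7, 80.9 and 53.5 CPM in FLOX (log2 fold change -0.57 ± 0.18, adjusted p = 0.351, edgeR). A Car4-led cluster held 63% of these nuclei on average in CKO and 70.2% in FLOX. Scd2 stood at 30.4, 34.6 and 37.9 CPM there in CKO and at 74.1, 59.1 and 41.2 CPM in FLOX. Its means were 55.5 CPM in CKO and 94.4 CPM in FLOX in a Cytl1-led cluster, and 87.7 and 78.8 CPM in an Aqp1-led one. Adipocyte markers averaged 2946 CPM in CKO and 3538 CPM in FLOX in the class, where Scd2 lay at 505% of its adipocyte level. The part of makeup and markers was not tested.

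In the whole tissue, where cell types mix, Me1 stood at 128, 181 and 106 CPM in CKO and at 174, 244 and 198 CPM in FLOX (log2 fold change -0.66 ± 0.22, adjusted p = 0.114, edgeR). The share of all UMIs from B-cell-like nuclei was 9.58% on average in CKO and 1.01% in FLOX. Of Scd2's UMIs, 22.0% came from B-cell-like nuclei in CKO and 2.71% in FLOX, while its whole-tissue log2 fold change was -0.11 ± 0.16 (adjusted p = 0.689, edgeR).

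Genes around the pathway were read in adipocyte-like nuclei from 6 lists. Of their 84 genes, not all of which were high enough to test, 1 passed edgeR's test, where 2.41% of all genes tested did. It was Slc2a4, the insulin-responsive glucose transporter GLUT4. It stood at 46.3, 53.2 and 45.3 CPM in CKO libraries 1, 2 and 3, against 31.7, 30.1 and 28.8 CPM in FLOX libraries 1, 2 and 3, and rose in CKO with a log2 fold change of 0.60 ± 0.09 (adjusted p = 0.0268, edgeR). It lost the call in edgeR without CKO library 2 (adjusted p = 0.0767), CKO library 3 (0.0737), FLOX library 1 (0.0899) or FLOX library 2 (0.077). The call was also lost with the unnamed adipocyte cluster added (0.0853), and with that cluster but without FLOX library 3 (0.0626). In nuclei with 3000 to 8000 UMIs (0.0618) and with the trend over gene span removed (0.45, adjusted p = 0.0659) Slc2a4 did not pass edgeR's test either. Over all settings the adjusted p ran from 3.41e-05 (DESeq2) to 0.0899 (edgeR).

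Among the other regulators Thrsp, a lipogenic nuclear protein that is a target of ChREBP, stood at 76.1, 107 and 87.1 CPM in CKO and at 60.7, 59.7 and 35.1 CPM in FLOX (log2 fold change 0.72 ± 0.22, adjusted p = 0.113, edgeR). Nr1h3, which encodes the oxysterol receptor LXR alpha, had 0.32 ± 0.10 (adjusted p = 0.105). Insig1, which holds SREBPs in the endoplasmic reticulum and is itself an SREBP target, stood at 119, 120 and 77.4 CPM in CKO, below the 138, 237 and 123 CPM in FLOX (-0.72 ± 0.27, adjusted p = 0.167, edgeR). Srebf2, the sterol-regulated relative of Srebf1, had -0.26 ± 0.10 (adjusted p = 0.18), Mlx, the partner of ChREBP, -0.22 ± 0.15 (0.414), Mid1ip1, a relative of Thrsp, -0.32 ± 0.25 (0.486), and Pnpla3, a lipid-droplet protein, -0.18 ± 0.14 (0.46).

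Among enzymes, Acss2, which makes acetyl-CoA from acetate, had a log2 fold change of -0.79 ± 0.29 (adjusted p = 0.163, edgeR), and the citrate carrier Slc25a1 -0.08 ± 0.26 (0.869). G6pdx, which makes NADPH in the pentose phosphate pathway, was lower in all 3 CKO libraries (74.0, 69.4 and 67.3 CPM) than in all 3 FLOX libraries (90.4, 76.1 and 99.4 CPM), at -0.41 ± 0.11 (adjusted p = 0.0792, edgeR). Of all genes tested, 9.14% were lower in every CKO library. Elovl5 had -0.37 ± 0.15 (0.191), Fads2 -0.05 ± 0.27 (0.929) and Fads1 1.03 ± 0.28 (0.0858), the last on 125 UMIs in CKO and 95 in FLOX.

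By list, 0 of 9 NADPH-supply genes had a fitted value above 0, with a median log2 fold change of -0.27, and 2 of 16 cholesterol-synthesis genes did, with a median of -0.39, beside a median of 0.01 over all genes tested. None of these genes passed edgeR's test, and 3 of the 9 and 7 of the 16 had an unadjusted p under 0.05, beside 22.9% of all genes. Scaled by library totals alone, which put the median of all genes at 0.09, these were 1 of 9 and 3 of 16. The elongation and desaturation list had 4 of 11 above 0, the acetyl-CoA and citrate list 5 of 13, the regulators 7 of 19 and the SREBP-1c, ChREBP or LXR targets 5 of 10.

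Across the 24 state sums, the genes whose level was most like the mean of the 10 members, among 6350 compared, were Rbm47 (Pearson correlation 0.927), Gnptab (0.922), Hsd17b12 (0.920), Agpat2 (0.915), Qk (0.912), Psma1 (0.911), Apmap (0.909) and Akap7 (0.905). Hsd17b12 acts in fatty acid elongation and Agpat2 in triglyceride synthesis.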

How the data were processed

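Per the labels' protocols, fat of 3 CKO and 3 FLOX mice gave nuclei by sucrose gradient, DAPI-positive nuclei were sorted, and 10x Genomics 3′ chemistry was used. The deposited matrices hold UMI counts per gene and barcode, made with Cell Ranger 7.1, per the submitters' processing notes, which name the builds mm10 and GRCh38; the treatment of intronic reads is not given in the sources used here. Library totals were 39130112, 38857282 and 41951373 UMIs for CKO and 55342903, 55250025 and 45007561 UMIs for FLOX. Counts were not normalized before deposit, and none of the libraries of a group looked like a copy (chi-square per degree of freedom 29.1 to 71).

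Barcodes with fewer than 500 genes or over 5% mitochondrial UMIs were dropped, and so were the highest Scrublet scores, as presumed doublets, at 0.8% per 1000 barcodes, which left 56222 nuclei. Clustering used scanpy 1.11.5, with 3000 variable genes, 40 components, 20 neighbours, and the Leiden method at resolution 1 (leidenalg 0.10.2), which gave 37 clusters, 12 unnamed. A name needed at least 3 markers and 50% of 1 of 18 lists at 2-fold over the mean of the other clusters (5 CPM added), with no unrelated list at both 33% and 3 markers. Clusters with over 80% of nuclei from 1 library, or with leading genes against the name, stayed unnamed. The naming limits were settled after the markers were seen. By each nucleus's own marker score 86.3% of named nuclei fell in their cluster's class.

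UMI sums per library and class, with the library as the replicate, entered edgeR 4.0.16, run under R 4.3.3 (TMM, filterByExpr, robust quasi-likelihood fit, prior count 2) over all genes, adjusted by Benjamini-Hochberg at 0.05. DESeq2 1.42.0 was an alternative. CPM uses the library's total in the class, and errors cover the 3 libraries of a group. The test was checked on simulated data. Classes and states needed at least 20 nuclei in each library. Named genes were all members, list genes past the test, 13 further list genes fixed by name, and the 8 genes most alike in level. The members and lists were chosen with earlier results of these data known. Gene positions are from GENCODE vM21 on mm10, and promoters from RefSeq on GRCm38.p6. Alternatives covered normalization, filters, each library left out, clustering and naming, depth, gene span and a replicate block.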

Additional observations from a re-analysis of the deposited data

Results flagged for a closer look

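The CKO effect on Acaca differed between the Pck1-led and the Mageb18-led adipocyte state, by 0.96 on the log2 scale in the interaction test (0.959 ± 0.163 SE, edgeR adjusted p = 0.025). The fitted log2 fold change was 0.42 ± 0.19 in the Pck1-led and -0.52 ± 0.17 in the Mageb18-led state, neither of which passed on its own. Median totals were 6592.5, 3915.5 and 4623 UMIs in CKO libraries 1, 2 and 3 and 6387.5, 6086 and 7085 UMIs in FLOX libraries 1, 2 and 3 in the Pck1-led state, and 16632, 11924 and 12212 UMIs in CKO and 14497, 13044.5 and 15238.5 UMIs in FLOX in the Mageb18-led state. Acaca spans 272 kb. The macrophage markers summed to 91.9 to 113 CPM in CKO and 90.9 to 117 CPM in FLOX in the Pck1-led state, and to 159 to 329 CPM in CKO and 142 to 159 CPM in FLOX in the Mageb18-led state. The part of depth and of these markers in the result was not tested.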

How the results depend on the processing

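edgeR as described called 0 members in adipocyte-like nuclei. With no filter 1 was called (Acly), with the replicate block 1 (Scd2), with 3000 to 8000 UMIs per nucleus 1 (Fasn), with DESeq2 4, and 0 to 1 with a library left out. In the whole tissue the replicate block called 1 and DESeq2 1 (Me1 both times), and leaving out a library 0 to 1. Of the 19282 genes tested there the replicate block called 583 higher and 366 lower, and DESeq2 1759 higher and 1637 lower. In macrophage-like nuclei no filter called 2, and leaving out a library 0 to 1. Within states no filter called 5, DESeq2 1, and leaving out a library 0 to 2. The interaction called 1, and 0 to 1 with a library left out; the 1 member called without CKO replicate 2 was Acacb.

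Of all genes in adipocyte-like nuclei 379 were called, 166 higher and 213 lower, and with library totals only 331 higher and 148 lower. Other counts were 752 with no filter, 1314 with DESeq2, 124 with classes by marker score, 4 with the unnamed adipocyte cluster added, 115 with that cluster but without FLOX library 3 (an alternative chosen after seeing the data), 239 with 3000 to 8000 UMIs, and 89 with the span trend removed. Leaving out 1 library gave 0 to 541: 541 without CKO library 1, 0 without CKO library 2, 2 without CKO library 3, 0 without FLOX library 1, 2 without FLOX library 2 and 235 without FLOX library 3. The cause was not tested.

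Log2 fold changes that changed sign were those of Acaca (-0.13 to 0.15 over leave-one-out fits, and 0.51 with 3000 to 8000 UMIs) and Scd1 (-0.10 to 0.40, and -0.046 with states weighted equally, chosen after seeing the data), and, for the difference between states, those of Acly (-0.23 to 0.39), Fasn (-0.52 to 0.25), Scd2 (-0.70 to 0.22), Elovl6 (-0.24 to 0.90) and Me1 (-0.16 to 0.38). Clustering without these genes moved Srebf1 in the Mageb18-led state to 70.07 CPM from 82.79. Same-numbered libraries had correlations of -0.0274 to 0.296. Weak correlations between so few libraries cannot decide whether the numbers pair the samples. Counts limit Scd2, Elovl6 and Fasn in single states.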

Other observations

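Outside the named classes, Mlxipl had its highest pooled level in a cluster of 116 nuclei led by Slco1b2 and Alb, genes of hepatocytes, at 558 CPM on 242 UMIs. Of these nuclei 89 came from FLOX library 3 and 0 from CKO library 1 and FLOX library 1. Me1 stood at 224 CPM, on 242 UMIs, in a cluster of 428 nuclei led by Ltf and Csn3, genes of milk proteins, which held 75, 170 and 5 nuclei of CKO libraries 1, 2 and 3 and 142, 15 and 21 of FLOX libraries 1, 2 and 3. Both clusters stayed unnamed, and their values are pooled over libraries with no replicate error.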
